A study of Bos taurus with 16 samples.

Results

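The CD14+ cells of the blood of 4 pregnant cows (Bos taurus) are described here through all 8 value columns that the labels assign to them, of 16 columns in the series. The other 8 columns hold the CD14+ cells of the endometrium of the same cows. Animal 1 was at day 164 of pregnancy, animal 2 at day 239, animal 3 at day 242 and animal 4 at day 248. No treatment of the cows was named, age and breed were not given in the sources used here, and blood was what remained in the heart at an abattoir. Mononuclear cells were taken from a density gradient and sorted by flow cytometry with an antibody to CD14 in repeated rounds within the monocyte gate, and the submitters recorded a high purity by cytometry. Their RNA was amplified from small amounts, labeled with Cy3 or Cy5 and hybridized to Agilent bovine oligonucleotide arrays together with the endometrial RNA of the same animal. Each animal had 2 arrays, which are technical replicates and were averaged, so every spread below is over 4 animals. Dyes were swapped between the arrays of animals 1, 2 and 4, and the blood RNA of animal 3 was labeled with Cy3 on both.

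CD14 is a receptor that presents bacterial lipopolysaccharide to Toll-like receptor 4, and on bovine blood leukocytes it is the usual surface marker of the classical monocyte. Monocytes are short-lived phagocytes that leave the bone marrow, circulate and enter tissues, where they can become macrophages or dendritic cells. In cattle, as in man, classical monocytes are rich in the calgranulins S100A8, S100A9 and S100A12, calcium-binding proteins that are released in inflammation, and they lack the CD3 complex of T cells. A level below is a log2 normalized intensity from the table of the submitters, averaged over the arrays of an animal, on a scale that ran from 2.22 to 18.12 with a median of 8.0 in every column. The brightness of different probes depends on the probe and its labeling, so an order of genes within a library is an order of brightness and not of transcript number. In these bulk samples, fewer cells of a type and less RNA per cell cannot be told apart.

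In their RNA markers, the blood libraries of animals 2, 3 and 4 went against their label. The label rests on the sort for CD14 protein at the cell surface, which the arrays do not measure. The level of CD14 was 16.12 in the library of animal 1, against 5.76, 8.85 and 6.94 in the libraries of animals 2, 3 and 4. The libraries of animals 2 to 4 thus lay from below to just above the median of all probes, and the library of animal 1 was over 2-fold above each of them. The CD14 probe was still well above background in all 8 blood channels. CD3E, the epsilon chain of the T cell receptor complex, ran the other way, at 8.03, 14.07, 13.01 and 14.24 in animals 1 to 4. Only in the library of animal 1 did the RNA markers go with the label. The libraries of animals 2 to 4 are therefore called by their label and animal number and not monocytes. The genes on which the description turns are given with the values of all 4 animals, so that animals 2 to 4 can be read without animal 1. The design has 1 animal at the earlier day, so day of pregnancy, animal and whatever sets the library of animal 1 apart cannot be told apart. The cause of the pattern was not tested.

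The first 30 bases of the 60-base probes of the genes on which this description turns show what was measured, and they were read from the scanner files and are printed 5′ to 3′. They are CD14, which the label names, the calgranulins and 3 markers of T cells, among them the gamma chain constant region TRGC6.
CD14: gagagggaagaggaatgaattggctcagat
S100A8: aatagcagagctattgggcctggggctagg
S100A9: tgctatcaatgagatcatggaggatctgga
S100A12: aatgtccccaagaagacttacccttctcct
CD3E: ctccatgaatgtgctaaattccttgtcagc
CD8A: cctcagggataatccattgttaatattatg
TRGC6: atcttccgtcacacaccctggagatgctgg
The array names 4 of these probes by their current symbol. S100A8, S100A9 and TRGC6 stand under the names LOC616818, LOC532569 and LOC535300 and were matched to a current symbol. Each of the 7 genes had its level from the brightest probe under its name.

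Of 21475 probes, 13534 (63.0%) were well above background in all 8 blood channels and 3051 (14.2%) in 0 of them. Without animal 1, 14044 probes were well above background in all 6 channels. A channel had between 69.9% and 78.2% of the probes well above background, and no probe was saturated. Across the 13534 probes, which are not independent replicates, technical replicates of the same RNA were correlated with r between 0.994 and 0.997. The 12 pairs of channels that joined animal 1 with another animal had r between 0.778 and 0.817, and the 12 pairs among animals 2, 3 and 4 had r between 0.922 and 0.953. With r over all pairs a description only, the blood library of animal 1 was the one that stood apart.

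CD14, which the label names, and the calgranulins S100A8, S100A9 and S100A12 were far brighter in the library of animal 1 than in the others. S100A8 had levels of 17.93, 12.83, 12.04 and 12.15 in animals 1 to 4, which placed it among the brightest probes of animal 1. S100A12 had levels of 17.69, 12.34, 11.41 and 10.78. S100A9 had levels of 14.02, 4.54, 6.03 and 3.84, and was well above background in 6 of 8 channels. The median of the 4 genes was 16.9 in animal 1 and 9.05, 10.13 and 8.86 in animals 2 to 4. All 4 of 4 genes were over 2-fold above each other animal in animal 1, a rule under which 12.9% of 20464 gene names fell. The median over all gene names was between 8.06 and 8.08 in the 4 animals. S100A8 and S100A12 stayed well above the median in animals 2 to 4 although CD14 and S100A9 did not.

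**Figure D1:**
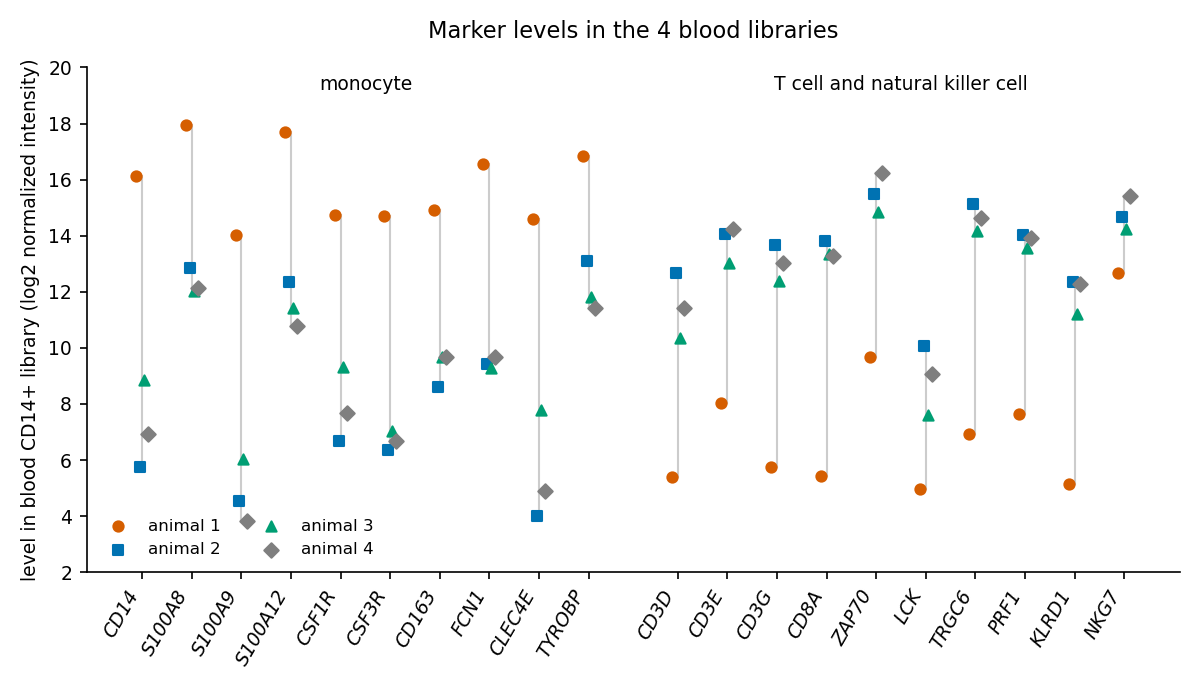
Levels (log2 normalized intensity, vertical axis) of 10 monocyte genes and 10 T cell and natural killer cell genes in the blood libraries, with 1 point for each animal (the mean of its 2 arrays) and a line over the range of the 4 animals. Animal 1 is the highest point for each of the monocyte genes shown, with CD14 at 16.12, and the lowest for each of the lymphocyte genes shown, with CD3E at 8.03.

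A longer list of 34 surface and secreted monocyte genes, CD14 included, had 31 members on the array by name, and 23 of them were over 2-fold above each other animal in animal 1 and 0 below. Over all gene names 12.9% were above and 12.8% below by this rule. Every list count that follows is to be read beside these shares. The growth factor receptors that drive the monocyte and granulocyte lineages were among the 23. CSF1R, the receptor of macrophage colony-stimulating factor, had levels of 14.73, 6.67, 9.33 and 7.69 in animals 1 to 4. CSF3R, the receptor of granulocyte colony-stimulating factor, had levels of 14.69, 6.37, 7.05 and 6.69. Both were highest in animal 1, as were 29.8% of all gene names. FCN1, the ficolin that monocytes secrete to bind sugars of microbes, had levels of 16.54, 9.42, 9.28 and 9.68. CD163, the scavenger receptor for haptoglobin with hemoglobin, had levels of 14.92, 8.59, 9.69 and 9.67. CLEC4E, a lectin receptor for mycobacterial glycolipid, had levels of 14.61, 4.01, 7.77 and 4.88. The signalling adaptors TYROBP and FCER1G were less unequal, TYROBP with 16.84, 13.08, 11.83 and 11.43 and FCER1G with 15.69, 13.21, 12.43 and 12.25. Both adaptors also serve receptors of natural killer cells.

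Of the other 8 members, some were as bright in animals 2 to 4. TREM1, a receptor that amplifies inflammation in phagocytes, had levels of 14.64, 15.70, 14.86 and 15.27 in animals 1 to 4 and was lowest in animal 1. ITGB2, the beta chain of the leukocyte integrins, which lymphocytes share, had levels of 16.02, 15.25, 14.50 and 15.36. CX3CR1, the fractalkine receptor of nonclassical monocytes and of cytotoxic lymphocytes, had levels of 8.89, 10.89, 9.29 and 9.37. FCGR2B was nearly as high in animal 3, with levels of 12.12, 6.46, 11.90 and 8.15, and another of its probes differed by over 1 log2 unit. The probes of CD36 and SERPINA1, which other monocyte preparations are known to express, were well above background in 0 of 8 channels, also in animal 1. So was a lysozyme probe that the array names LYZ and that was matched to the current symbol LYZ2. For those 3 genes no level can be given.

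The NADPH oxidase, which makes the superoxide with which phagocytes kill microbes, had 5 of 6 listed genes on the array, and 4 of them were over 2-fold above each other animal in animal 1. NCF4, a cytosolic subunit, had levels of 16.27, 7.57, 12.49 and 11.10 in animals 1 to 4, and CYBA, a membrane subunit, had levels of 16.23, 13.85, 13.47 and 13.76. RAC2, the small GTPase of the complex, which lymphocytes also use, was lowest in animal 1, with levels of 9.58, 12.09, 9.99 and 11.56. Among 10 transcription factors of the myeloid lineage, 4 were above and 2 below. SPI1, also called PU.1, had levels of 15.81, 11.45, 14.56 and 12.42 and was over 2-fold above in animal 1. KLF2 and CEBPB were the factors that were lower in animal 1, KLF2 with 12.95, 15.59, 15.62 and 14.62 and CEBPB with 14.57, 16.51, 16.31 and 16.32.

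The T cell genes gave the reverse picture. A list of 22 T cell genes had 16 on the array by name, and all 16 were over 2-fold below each other animal in animal 1, a rule under which 12.8% of gene names fell. Their median level was 5.49 in animal 1 and 13.08, 11.46 and 12.44 in animals 2 to 4. CD8A, the coreceptor of cytotoxic T cells, had levels of 5.44, 13.81, 13.36 and 13.28. CD3G had levels of 5.74, 13.65, 12.39 and 13.02. The libraries of animals 2 to 4 lay close together for both genes, and none came near that of animal 1. ZAP70, the kinase that the CD3 complex recruits, had levels of 9.66, 15.50, 14.85 and 16.22, and another of its probes differed by over 1 log2 unit. CD247, the zeta chain, had levels of 10.04, 15.05, 14.33 and 14.96. In animal 1, 12 of the 16 genes were still well above background in both channels, among them CD3E, CD8A and CD3G.

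Probes for chains of the T cell receptor itself were looked up after these values were seen. Cattle are known for a large share of gamma delta T cells in blood. TRGC6, a gamma chain constant region, had levels of 6.93, 15.12, 14.17 and 14.64 in animals 1 to 4. The gamma probes TRGC4, TRG@ and LOC530015 had the same order of animal 1 against the rest, with levels of 3.27 to 4.64 in animal 1 and of 10.44 to 12.80 in the others. TRG@ and LOC530015 were well above background in 6 of 8 channels, and their low levels in animal 1 give only a bound. A delta chain probe (LOC404176) had levels of 9.91, 14.55, 13.68 and 15.40. Chains of the alpha beta receptor were present too, an alpha chain probe (LOC511486) with 8.25, 13.60, 12.60 and 13.36 and a beta chain probe (LOC509513) with 9.51, 15.21, 13.60 and 14.70. One further beta probe, TRB@, was dim in all animals, with levels of 6.08, 6.76, 6.77 and 6.43. Since the chains share sequence between copies of a constant region, cross-hybridization between them was possible and was not tested.

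Cytotoxic and natural killer cell genes moved with the T cell genes, 13 of 15 on the array over 2-fold below each other animal in animal 1 and 0 above. PRF1, the pore-forming perforin, had levels of 7.64, 14.04, 13.55 and 13.90 in animals 1 to 4. KLRD1, the CD94 chain of inhibitory and activating killer receptors, had levels of 5.14, 12.34, 11.22 and 12.26. CCL5, a chemokine of cytotoxic lymphocytes that monocytes can also make, was bright in all, with levels of 15.51, 17.31, 16.72 and 17.14. NKG7, a membrane protein of cytotoxic granules, had levels of 12.68, 14.67, 14.23 and 15.40. NCR1, the receptor NKp46 that marks natural killer cells, had levels of 5.86, 8.49, 7.91 and 8.12. Its order over the animals was that of PRF1.

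B cell genes were detected in all 4 libraries, and 10 of 12 were lowest in animal 1, as were 39.8% of all gene names. Of the 12 B cell genes on the array, 5 were over 2-fold below each other animal in animal 1 and 0 above, and all 12 were well above background in all 8 channels. CD79A, a signalling chain of the B cell receptor, had levels of 12.61, 13.67, 15.50 and 13.76 in animals 1 to 4. TNFRSF13C, the receptor of the survival factor BAFF, had levels of 12.74, 14.88, 16.76 and 14.73. Animal 3 was the highest for each of these genes, and the median of the list was 8.20, 9.53, 11.48 and 10.35.

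**Figure D2:**
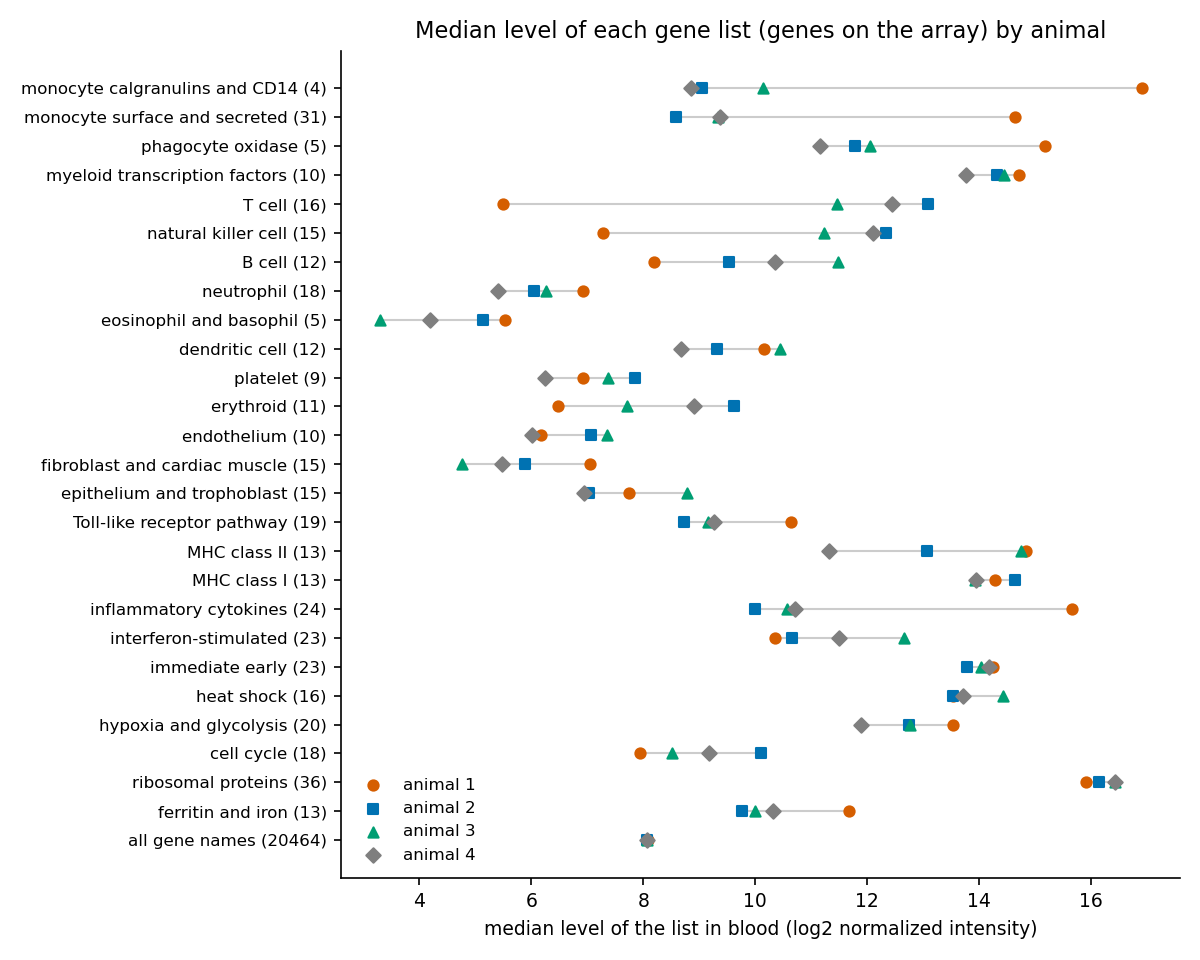
Median level (log2 normalized intensity, horizontal axis) of each of 26 gene lists and of all gene names, with 1 point for each blood library and the number of genes on the array in brackets. The monocyte and inflammatory cytokine medians of animal 1 lie to the right of the other animals and its T cell and natural killer cell medians to the left, at 5.49 against 11.46 to 13.08 for T cells.

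Markers of other cells that blood from the heart could carry were mostly dim or unequal between animals. Of 18 neutrophil genes on the array, 10 were well above background in all 8 channels and 4 in 0, and 6 were over 2-fold above in animal 1. BPI, a granule protein that kills Gram-negative bacteria, had levels of 15.31, 6.24, 9.76 and 4.57 in animals 1 to 4. CHI3L1, a chitinase-like glycoprotein of neutrophil granules and macrophages, had levels of 14.86, 5.67, 7.72 and 6.69. LTF, lactoferrin, had levels of 8.08, 3.50, 6.09 and 3.04 and was well above background in 4 channels. Of the other granule genes, MMP8, CATHL1 and CATHL4 were at background in all channels and CATHL6 in none, and MPO, the myeloperoxidase of the primary granules, had levels of 6.94, 7.35, 6.45 and 7.51. Of 9 platelet genes, 1 (11.1%) was over 2-fold above in animal 1, near the 12.9% of all gene names, and 0 below. PPBP was highest in animal 2, with levels of 9.82, 12.72, 9.26 and 7.72. Erythroid genes were over 2-fold below in animal 1 for 7 of 11. Alpha globin, HBA, had levels of 7.93, 11.38, 13.51 and 13.47.

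Several genes of cardiac muscle were brightest in the library of animal 2. MYL2, the ventricular myosin light chain, had levels of 5.63, 12.98, 8.18 and 6.54 in animals 1 to 4. TNNI3, cardiac troponin I, had levels of 7.93, 14.15, 10.43 and 8.36, and myoglobin, MB, had levels of 7.05, 11.60, 7.34 and 7.66. For each of the 3 genes animal 2 was over 2-fold above each other animal, as it was for 3.54% of all gene names, and MYH7, TNNT2 and ACTC1 were highest in it too. The cardiac genes MYL7 and NPPA were highest in animal 4, MYL7 with 5.55, 4.90, 5.01 and 6.58 and NPPA with 4.34, 4.99, 4.46 and 5.37. NPPB was highest in animal 1, where alone it was well above background, with 4.81, 3.01, 2.53 and 3.17. The matrix protein lumican and the collagen COL3A1 were instead seen in animal 1, LUM with 9.08, 2.49, 2.46 and 2.48 and COL3A1 with 8.12, 2.63, 2.40 and 2.42. Both were well above background in the 2 channels of animal 1 alone. The collagens COL1A1, with 9.88, 5.88, 4.25 and 6.93, and COL1A2, with 9.28, 4.74, 5.19 and 5.48, were highest in animal 1. They were well above background in 6 of 8 channels, so not in animal 1 alone. Another probe of COL1A2 differed by over 1 log2 unit. Epithelial keratins were highest in animal 3, KRT18 with 9.0, 8.34, 10.91 and 7.03 and KRT8 with 8.12, 7.20, 10.73 and 7.00. The whole list of fibroblast and cardiac muscle genes had 6 of 15 over 2-fold above in animal 1 and 0 below. For epithelium and trophoblast these counts were 1 and 1 of 15, for endothelium 1 and 0 of 10, for dendritic cells 2 and 2 of 12, and for eosinophils and basophils 1 and 1 of 5. Over all gene names 12.9% were above and 12.8% below, so counts of 1 or 2 in such short lists are no result about them. Whether cells other than leukocytes were in the sorts was not tested.

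Inflammatory cytokines and chemokines were the list outside the cell type markers that set animal 1 apart most, with 19 of 24 genes over 2-fold above each other animal and 2 below. Their median was 15.66 in animal 1 and 9.99, 10.57 and 10.71 in animals 2 to 4. CXCL2, a chemokine that attracts neutrophils, had levels of 18.05, 13.40, 14.26 and 14.96. IL1B, the cytokine interleukin 1 beta, had levels of 17.11, 9.92, 10.14 and 11.23. IL6 had levels of 16.77, 9.06, 10.20 and 9.30. All 3 were over 2-fold above each other animal in animal 1. PTGS2, the inducible cyclooxygenase that makes prostaglandins, had levels of 17.49, 11.61, 12.12 and 12.07. IL10, which restrains inflammation, was also highest in animal 1, with 14.62, 6.96, 9.78 and 7.69. TNF, of which another probe differed by over 1 log2 unit, had levels of 15.81, 14, 14.15 and 14.59. The genes that were lower in animal 1 were CCL5 and OSM.

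Of 19 genes of the Toll-like receptor pathway, 9 were over 2-fold above each other animal in animal 1, with 0 over 2-fold below. The 9 were not all receptors and included the kinases IRAK2 and IRAK4 and the binding protein LBP. TLR4, the lipopolysaccharide receptor with which CD14 works, had levels of 15.41, 10.66, 9.89 and 9.75 in animals 1 to 4. TLR2, the receptor of bacterial lipoproteins, had levels of 16.57, 11.14, 13.85 and 10.78. TLR6, its partner, was over 2-fold apart in no animal, with 15.06, 15.77, 14.59 and 15.16, and the shared adaptor MYD88 ranged less, with 12.51, 12.29, 12.68 and 12.37. TLR5, the flagellin receptor, was well above background in the 2 channels of animal 1 alone, with levels of 6.70, 2.94, 2.92 and 2.62.

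Genes that handle iron and heme, a duty of monocytes and macrophages, were over 2-fold above in animal 1 for 5 of 13 and below for 0. HP, haptoglobin, which binds free hemoglobin, had levels of 15.97, 6.03, 7.45 and 5.07 in animals 1 to 4. SLC11A1, the phagosomal metal transporter NRAMP1, had levels of 16.35, 9.69, 9.99 and 10.31, and HMOX1, the heme oxygenase, had levels of 16.12, 12.84, 12.46 and 12.60. FTH1, the ferritin heavy chain, was bright in all animals, with 17.22, 17.02, 14.63 and 16.13, and was lowest in animal 3.

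Most antigen presentation genes were bright in every library. MHC class I genes with their peptide-loading partners had 13 of 13 members well above background in all 8 channels, medians of 14.28, 14.63, 13.93 and 13.95 in animals 1 to 4, and 0 members over 2-fold apart in animal 1 in either direction. B2M, beta 2 microglobulin, had levels of 16.46, 16.80, 16.68 and 16.59. MHC class II genes, which monocytes, dendritic cells and B cells express, had 2 of 13 over 2-fold above in animal 1 and 0 below. The share above was 15.4%, near the 12.9% of all gene names. BOLA-DRA, the DR alpha chain, had levels of 16.62, 15.17, 16.20 and 14.89, and CD74, the invariant chain, had levels of 15.47, 15.48, 15.89 and 14.61. The DQ genes of cattle are polymorphic, and their probes differed by animal. BOLA-DQB had levels of 16.18, 16.19, 17.02 and 4.02, and BOLA-DQA5 had levels of 14.84, 13.36, 15.39 and 2.40, so animal 4 was near the bottom of the scale for both. BOLA-DQA2 was the reverse, with 8.58, 2.76, 6.0 and 14.04, and another of its probes differed by over 1 log2 unit.

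Interferon-stimulated genes did not follow the division by animal 1, with 2 of 23 over 2-fold above in it and 4 below. MX1, an antiviral GTPase, was highest in animal 3, with levels of 8.21, 6.03, 11.34 and 5.64, and ISG15, a ubiquitin-like modifier, had levels of 16.69, 13.62, 16.04 and 13.88. RSAD2, the antiviral enzyme viperin, had levels of 7.77, 12.98, 13 and 11.93. Cell cycle genes were over 2-fold below in animal 1 for 9 of 18 and above for 1. CDK1, the kinase of mitotic entry, had levels of 5.51, 9.06, 8.12 and 8.92, and MCM2, of the replicative helicase, had levels of 8.10, 11.43, 10.37 and 10.75. Hypoxia and glycolysis genes were above for 7 of 20 and below for 2, with ADM, adrenomedullin, at 14.94, 10.59, 10.89 and 10.00. Immediate early genes, which respond to handling as well as to signals, were bright in all, with medians of 14.24, 13.78, 14.04 and 14.17, and 7 of 23 were above and 2 below in animal 1. JUND had levels of 15.89, 16.28, 16.57 and 17.16. Heat shock genes had medians of 13.53, 13.53, 14.42 and 13.71, with 2 of 16 (12.5%) on each side. All gene names had nearly the same shares, 12.9% above and 12.8% below.

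Ribosomal proteins were the brightest list, with medians of 15.91, 16.14, 16.42 and 16.42 in animals 1 to 4 and 0 of 36 genes over 2-fold apart in animal 1. Among the 30 brightest named genes by the mean of the animals, 12 were ribosomal proteins, and 26 of the 30 ranged by no more than 1 log2 unit over the animals. SLC25A6, which exchanges ADP and ATP across the inner mitochondrial membrane, had the highest mean, with levels of 17.32, 17.57, 17.99 and 17.90. RPS20 had levels of 16.85, 17.34, 17.62 and 17.45. SRGN, serglycin, the proteoglycan core of leukocyte granules, had levels of 17.30, 17.27, 17.18 and 16.97. These genes were bright whichever lineage markers the library held. ODC1, the first enzyme of polyamine synthesis, was the member of the 30 with the largest SD, 0.72, and was lowest in animal 1, with levels of 15.87, 17.13, 17.57 and 16.91.

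**Figure D3:**
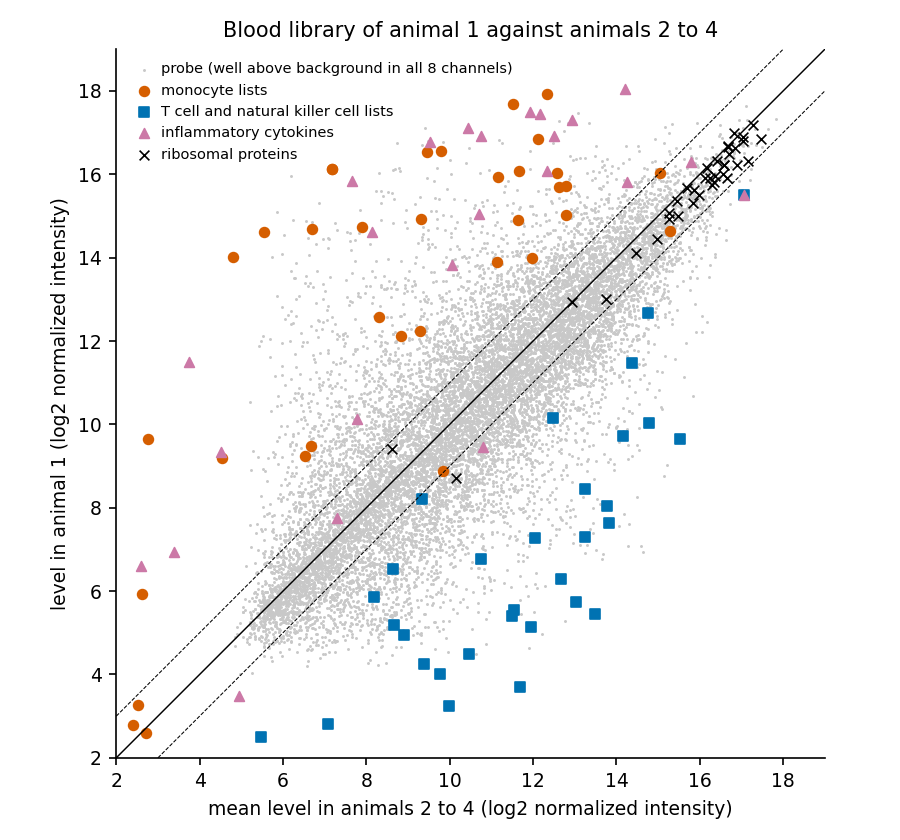
Level in the blood library of animal 1 (vertical axis) against the mean level in the libraries of animals 2 to 4 (horizontal axis), both as log2 normalized intensity, for the 13534 probes well above background in all 8 channels (small points) and for the members of 6 gene lists. The solid line marks equal levels and the dashed lines a difference of 1 log2 unit; monocyte genes lie mostly above the band, T cell and natural killer cell genes below it, and ribosomal proteins mostly inside it.

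Over the 13534 probes well above background in all 8 channels, the median SD between animals was 0.66 on the log2 scale, and the median difference between technical replicates was 0.109. For 9338 probes (69.0%) the range over the animals was above 1 log2 unit and above the largest technical difference. Without animal 1 the median SD was 0.43 and that count fell to 5347 probes (39.5%). Animal 1 was over 2-fold above each other animal at 1689 probes (12.5%) and below at 2224 (16.4%). The same counts were 413 and 415 for animal 2, 444 and 273 for animal 3 and 229 and 206 for animal 4. Another 380 probes were well above background in both channels of animal 1 and in none of the other 6, and 231 in all 6 of the others and in neither of animal 1.

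**Figure D4:**
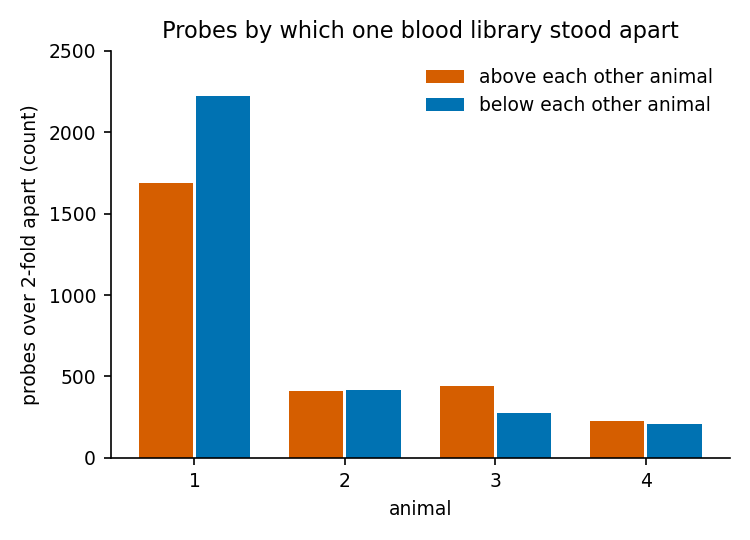
Number of probes (vertical axis) at which the blood library of 1 animal (horizontal axis) was over 2-fold above, or over 2-fold below, each of the other 3, among the 13534 probes well above background in all 8 channels. The bars of animal 1 stand at 1689 and 2224 probes and those of the other animals at no more than 444.

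Of the 15 named genes with the largest SD among those 13534 probes, 13 were highest in animal 1 and 2, CD8A and TRGC6, were lowest in it. HP led with an SD of 4.99, followed by BPI with 4.75 and by CD14 itself with 4.65. AREG, the growth factor amphiregulin, had levels of 15.09, 5.98, 6.09 and 5.49 in animals 1 to 4. NOS2, the inducible nitric oxide synthase, had levels of 16.03, 5.35, 9.21 and 10.34. EDN1, the peptide endothelin 1, had levels of 17.10, 8.85, 10.15 and 9.23, and XDH, xanthine dehydrogenase, had levels of 16.76, 8.19, 9.42 and 8.61. In all 15 genes animal 1 was at least 5.55 log2 units from the nearest other library. At the other end of the list, the 10 named genes with the smallest SD had SDs of 0.03 to 0.05, among them ACTR1A, of the dynactin complex, with 12.34, 12.37, 12.30 and 12.29.

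By the gap to the nearest other animal among all probes, the genes highest in animal 1 were led by CLEC4D, a lectin receptor of phagocytes, with levels of 12.91, 2.82, 2.42 and 2.94 in animals 1 to 4. CLEC4D was well above background in the 2 channels of animal 1 alone, so the others give only a bound. WLS, which carries Wnt proteins to the surface, had levels of 14.66, 3.36, 5.41 and 4.65, and AQP9, a water and glycerol channel of myeloid cells, had levels of 14.24, 2.68, 5.03 and 2.74. CSF3, granulocyte colony-stimulating factor, had levels of 11.52, 2.43, 2.49 and 3.08. The remaining 6 of the 10 were AREG, ADAMDEC1, CALCRL, HP, CLEC6A and NRP2. The genes lowest in animal 1 were led by GPRIN3 with 2.58, 12.24, 11.48 and 12.37, and by ICOS, a costimulator of activated T cells, with 2.43, 11.98, 10.44 and 10.50. GPRIN3 and ICOS were well above background in 6 of 8 channels, and their levels in animal 1 give only a bound. After CD8A came F2R, the thrombin receptor, with 5.09, 12.69, 12.79 and 12.78. TRGC6, the T cell surface receptor CD6, the kinase PRKCQ, the adaptor SH2D2A, CD3G and NIPAL1 made up the rest.

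The endometrial libraries of the same animals differed in CD14 and T cell markers in the direction of the blood libraries. CD14 in the endometrial libraries had levels of 14.04, 6.07, 9.5 and 7.38 in animals 1 to 4, in the order of the blood. CD3E there had levels of 10.29, 15.18, 14.72 and 13.98, and the T cell list had medians of 7.18, 12.61, 9.52 and 12.55. CSF1R had endometrial levels of 16.15, 10.71, 13.01 and 12.68, a difference of blood from endometrium of -3.53 (SE 0.66) that was not called (adjusted p = 0.064 with limma). S100A8 did not follow its order in blood, with endometrial levels of 13.74, 8.16, 14.30 and 12.81.

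**Figure D5:**
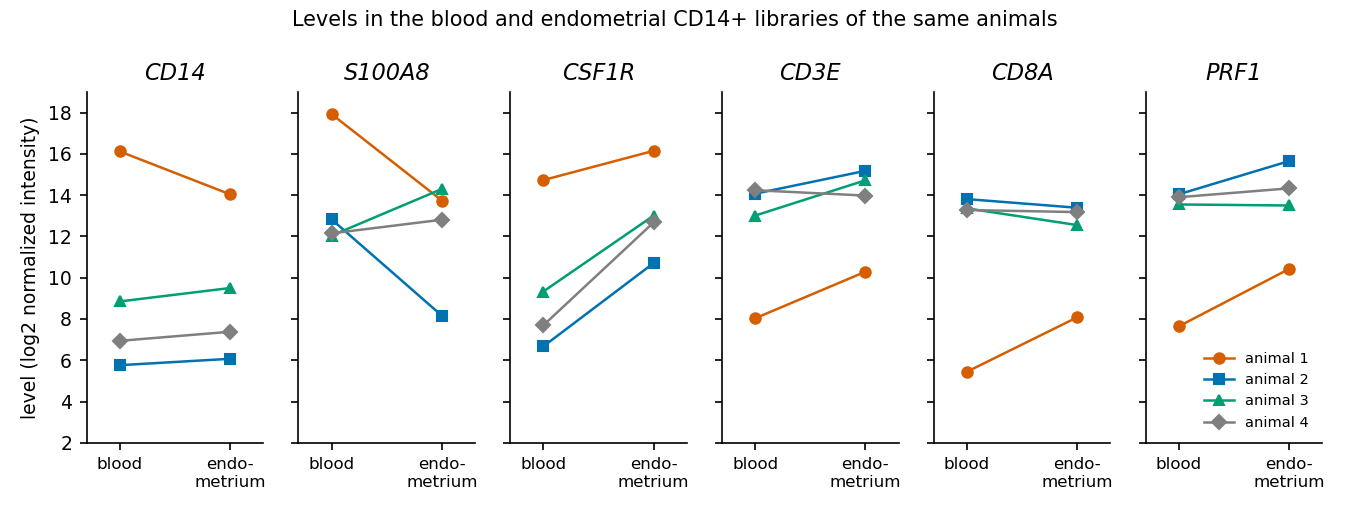
Levels (log2 normalized intensity, vertical axis) of 6 genes in the blood and the endometrial CD14+ library of each animal, joined by a line. For CD14 animal 1 is the highest in both tissues, at 16.12 and 14.04, and for CD3E, CD8A and PRF1 it is the lowest in both.

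To see which genes set blood apart from endometrium in spite of this spread, the difference of the tissues within each animal was tested over 17282 probes with limma. With the adjusted p no higher than 0.05 and a change beyond 2-fold, 20 probes (0.116%) were higher in blood and 205 (1.19%) higher in endometrium, with a median difference of 0.127 over all probes tested. At an unadjusted p these numbers were 1354 and 1344. None of the 4 genes CD14, S100A8, S100A9 and S100A12 was called, and CD14 had a difference of 0.17 (SE 0.60, adjusted p = 0.925 with limma). A 2-sided exact permutation test over 4 animals cannot give a p under 0.125. Of the 20 probes, 13 had a gene name. FCRL3, an Fc receptor-like protein of lymphocytes, had blood levels of 7.85, 7.44, 8.55 and 6.17 and was not well above background in any endometrial channel. It was at least 14.6-fold higher in blood (adjusted p = 0.0108 with limma), a bound that takes for the endometrial channel of every array the dimmest detected signal, or the probe's own value if that was brighter. POU2AF1, a coactivator of B cells, had blood levels of 6.96, 8.86, 10.46 and 9.16 and a difference of 4.41 (SE 0.71, adjusted p = 0.0392), with 3 of 8 endometrial channels well above background. BLK, a kinase of B cells, FCRL5 and CXCR1, a chemokine receptor of neutrophils, were called too, and of the 12 B cell genes on the array 2 were called. The CXCR1 probe stands on the array under the name IL8RB and was matched to the current symbol. ADGRE3, an adhesion receptor of myeloid cells, had blood levels of 13.46, 8.63, 6.46 and 7.46 and a difference of 3.56 (SE 0.61, adjusted p = 0.0478), with 3 of 8 endometrial channels well above background. For MYL2 all 4 animals had more signal in blood, by a difference of 4.01 (SE 0.67, adjusted p = 0.0463), with 2 of 8 endometrial channels well above background, beside the cardiac muscle values given above. The remaining named probes were CCR3, PDZD9, TREML2, PGM2, EXOC4 and POLB. Of all 20, the largest measured difference was that of LOC407218, described by the array as a calcitonin receptor-stimulating peptide, 4.57 (SE 0.79, adjusted p = 0.0481), with blood levels of 9.63, 11.78, 14 and 13.21. The count in favor of blood was 2 without animal 1, 4 without animal 2, 2 without animal 3 and 0 without animal 4.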

How the data were processed

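Blood and endometrial CD14+ cells of 4 cows were measured on 8 arrays. The authors deposited log2 values that, by their methods, had passed a lowess step on each array and quantile normalization of all channels. Their scanner files hold the intensity of each spot and its background, from Feature Extraction, version 10.5.1.1 in the deposited file headers and 9.5 per the labels. At 100% of probes each column of the log2 table matched, within 0.001, its dye in the scanner file that GEO lists under that animal's opposite array, so flags were read from there. The members and lists were chosen with earlier results of these data known. Genes to name were drawn from all list markers, the 30 brightest, the 15 and 10 of largest and smallest SD, the 10 highest and lowest in animal 1, and up to 15 called probes, of which the brightest probe stands for a gene. Those on which a result turns are given with values, and the rest by counts and medians. T cell receptor probes were added after values were seen. Of 21475 probes, 14793 had a gene symbol, through the RefSeq gene table (ARS-UCD2.0) or the array's annotation.

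Technical replicates were averaged. Blood minus endometrium was tested per animal with lmFit and eBayes of limma 3.58.1 (R 4.3.3) over probes well above background in at least 4 of 8 channels of either tissue, with Benjamini-Hochberg adjustment, and the fit was tested on simulated data. The pairing comes from the labels, in which blood and endometrium share the animal's number, and the deviations of the tissues from their means had r of 0.625, 0.367, 0.235 and 0.447 in animals 1 to 4. The animals are the only replicates. Alternatives changed the normalization (normexp with an offset of 50), scaling, technical replicates, animals, pairing, filter and test. Depth has no counterpart here, and the number of arrays limits precision.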

Additional observations from a re-analysis of the deposited data

Results flagged for a closer look

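For 41 of 133 genes named above, 1 animal lay farther from its nearest neighbor, as a share of the range of the 4 animals, than the critical value of Dixon's test allows. Chance gives this in about 1 in 20 groups. Many of these genes were named because their animals differ, so their share is a description. Among the 13534 probes well above background in all 8 channels, 1151 probes (8.5%) passed the same value, and 73.9% of them did so through animal 1.

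Animal 1 was the high one for 22 genes. The ratio of gap to range was 0.866 for S100A8, 0.945 for FCN1, 0.918 for CSF3R, 0.862 for CYBA and 0.839 for TLR4. It was 0.922 for TLR5, 0.907 for SLC11A1, 0.896 for HMOX1, 0.852 for IL6, 0.913 for PTGS2, 0.938 for AREG, 0.842 for EDN1 and 0.856 for XDH. For CLEC4D it was 0.95, for CLEC6A 0.88, for CALCRL 0.965, for ADAMDEC1 0.85, for NRP2 0.958 and for CSF3 0.928. Stromal LUM and COL3A1 had ratios of 0.995 and 0.96. In LUM, COL3A1, CLEC4D, CALCRL, CSF3 and TLR5 the other 3 animals were at background in all channels, so the floor of the scale holds them together and the ratio adds nothing to their levels. The ratio of 0.875 for SERPINA1 lies between values at background in all channels.

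Animal 1 was the low one for 15 genes. The ratio was 0.841 for CD3G, 0.856 for CD247, 0.937 for CD8A, 0.884 for TRGC6, 0.871 for TRG@ and 0.874 for LOC530015. It was 0.923 for PRF1, 0.844 for KLRD1, 0.839 for ICOS, 0.84 for PRKCQ, 0.883 for SH2D2A, 0.909 for GPRIN3, 0.987 for F2R, 0.90 for NIPAL1 and 0.897 for CEBPB. TRG@, LOC530015, ICOS, GPRIN3 and NIPAL1 were well above background in 6 of 8 channels. Animal 1 lay near the floor of the scale in these genes, so its levels give only a bound.

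Animal 4 was the low one for BOLA-DQB at 0.935 and BOLA-DQA5 at 0.844. Animal 2 was the high one for MB at 0.866 and for MMP8 at 0.887, the latter at background in all channels. Among the medians of 26 lists, those of the calgranulins with CD14 (0.842), the surface and secreted monocyte genes (0.871) and the inflammatory cytokines (0.873) passed, all through a high animal 1. CD14 itself did not pass, since the other 3 animals were spread from 5.76 to 8.85.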

How the results depend on the processing

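The number of arrays and animals limits all values here. The counts of probes against endometrium depended most on the processing. With probes higher in blood given first, they were 20 and 205 as reported, 0 and 9 with normexp, loess and quantile normalization of the scanner medians, 12 and 160 with the processed signal of the scanner scaled to its 75th percentile, 13 and 178 with technical replicate 1 alone and 8 and 115 with no filter on dim probes. With technical replicate 2 alone they were 27 and 219, above the counts reported. Without the pairing by animal (no replicate block) they were 3 and 35. The analysis of variance of the methods gave 602 and 636 probes at an unadjusted p and 0 and 0 after adjustment. With 1 animal left out the counts ran from 0 to 4 and from 0 to 180, with 0 and 0 without animal 4 and 2 and 67 without animal 1. The cause of these shifts was not tested.

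The description of the blood libraries moved less. Leaving out 1 animal gave 13656 to 14085 probes above background and 5347 to 8500 probes with a spread between animals, the lowest without animal 1. With an animal left out the first count can only rise and a range cannot widen, so these directions follow from the rules. The channels of animal 1 alone, a choice made after seeing the data, had 15688 probes above background. Animal 1 stood apart at 1922 to 2098 higher and 2501 to 2730 lower probes when 1 other animal was left out. With fewer animals to compare, these counts can only rise from the 1689 and 2224 of all animals, so they are no support. Over all probes the higher count was 2753, and with normexp, loess and quantile normalization the lower count was 1467. Of 15 marker genes, 0 changed direction between animal 1 and the others in 120 recalculations. In all 15 genes animal 1 lay beyond each other animal, so leaving out another animal could not change a direction. The unchanged directions are therefore no support, and only the sizes are informative. CD14 stayed between 7.37 and 9.77 log2 units above, CD3E between -6.12 and -4.84. With normexp, loess and quantile normalization S100A9 was 5.97 above in place of 9.22, and the differences of CD3G, CD8A and KLRD1 were -4.89, -5.25 and -3.99 in place of -7.28, -8.05 and -6.80. Scaling and background settings do not act on the scanner flag behind the detection counts and were not run for it.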

Other observations

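Among the 60 brightest probes of the blood libraries, LOC510671 and LOC614222, for which the array design gives a predicted protein and no gene symbol, shared a word of 10 bases that 4 of 21475 probes (0.0186%) hold on either strand. The word was searched for after the values were seen. It was 1 of several shared words. Among the words held by at least 4 probes, it was picked because the probes that hold it had the highest median brightness. An overlapping word had the same median, and the first by alphabet was taken. Their brightness is thus part of the choice and no result about the word. A stretch of 30 bases of each probe is given with the shared word in capitals.
LOC510671: tcagtcatatGTCCGACTCTgtgcggcccc
LOC614222: gttcggtcgtGTCCGACTCTttgtgacccc
LOC510671 had blood levels of 17.09, 17.94, 17.14 and 17.85 in animals 1 to 4, and LOC614222 had levels of 16.66, 17.87, 16.78 and 17.83. A DOCK2 probe with the word on the other strand had levels of 10.88, 12.16, 11.11 and 11.98.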
